A study of Homo sapiens with 6 samples.

Results

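Septins are GTP-binding proteins that assemble into rods, and the rods join into filaments and rings beneath the plasma membrane. In human cells the rods are hexamers built from SEPT2, SEPT6 and SEPT7 group proteins, or octamers that also hold a SEPT9 group protein, and paralogs of the same group can take each other's place. Septin filaments are best known for scaffolding the cleavage furrow and midbody of dividing cells, for stiffening the cell cortex and for binding actin and microtubules, and in colorectal tissue SEPT9 is known for the methylation of its promoter in tumours.

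The septin family held 13 of the 58735 rows of the deposited expression table, all of them with a gene name that had been turned into a date (10-Sep for SEPT10), and 9 of these rows are described here: SEPT2, SEPT3, SEPT5, SEPT6, SEPT7, SEPT8, SEPT9, SEPT10 and SEPT11. Each row was identified by its Ensembl gene identifier and position, and all 13 matched the septin gene of GENCODE release 29 on GRCh38. The 9 genes were chosen by name with their FPKM differences between siPSCA and NC already in view, so that these differences are given as a description and support nothing further. The other rows of the family were SEPT1, SEPT4, SEPT12 and SEPT14, and their levels are given below.

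The libraries came from HCT116SCs, the CD44+CD326+ cells that were sorted magnetically from HCT116, an established human colorectal cancer cell line, and grown as tumour spheres in serum-free medium with EGF, bFGF and B27. One group of 3 libraries received negative control siRNA (NC, genotype label WT) and the other group of 3 received siRNA against PSCA (siPSCA, genotype label PSCA knockdown), a GPI-anchored surface protein, and RNA was taken 48 h after transfection. The labels name 3 PSCA siRNAs but not which of them was used for sequencing, they do not say whether replicates were separate cultures, and the titles of siPSCA 2 and siPSCA 3 read HCT117 and HCT118 where their other labels read HCT116. The p-values below therefore measure the spread between these libraries, which may be technical.

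The 6 libraries held 16099716 to 17302219 reads on genes, and septin genes took 0.151% to 0.171% of them. PSCA itself was close to the detection limit, with 4, 12 and 15 reads in NC and 9, 9 and 7 reads in siPSCA, so that a knockdown was not detectable at this depth (ratio 0.784, 95% interval for counting error 0.444 to 1.37). The sorted markers CD44 and EPCAM were present in every library at 59.6 to 123 FPKM, and CD44 fell by 0.44 on the log2 scale in siPSCA. Of 10 markers of fibroblasts, leukocytes, endothelium and neurons 8 had a mean below 1 FPKM and CD3E was at 0 in all libraries, and their summed level was 4.94 to 7.49 FPKM in NC and 7.36 to 8.19 FPKM in siPSCA, most of it COL1A1. Their part in the septin values was not tested. In whole cultures fewer cells of a type and less RNA per cell cannot be told apart.

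All septins bind GTP through the same loop of the G domain, the P-loop or Walker A motif. The codons of this loop are shown because they let a reader see which bases of the family are fixed and how far base composition differs between members, a property that moved with the siPSCA difference (below). Each run holds 24 coding bases read 5′ to 3′ from the gene's GENCODE release 29 transcript with the longest coding sequence, in which exons are numbered, with the codon of the first glycine and those of the closing glycine, lysine and serine in capitals. The coordinates (GRCh38) are those of the last 23 bases, since in all 13 family genes an intron falls after the first base of the first codon shown.
SEPT2, chr2:241335126-241335148, plus strand, exon 5: GGTgaatcaggtctaGGAAAATCG
SEPT5, chr22:19719806-19719828, plus strand, exon 3: GGTgagtcaggcctgGGGAAGTCC
SEPT7, chr7:35863552-35863574, plus strand, exon 3: GGTgaatctggattgGGAAAGTCG
SEPT6, chrX:119663655-119663677, minus strand, exon 3: GGAgagacaggtttgGGCAAGTCC
SEPT8, chr5:132764397-132764419, minus strand, exon 3: GGGgagaccggcattGGCAAATCC
SEPT10, chr2:109585299-109585321, minus strand, exon 4: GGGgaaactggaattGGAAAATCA
SEPT11, chr4:77005601-77005623, plus strand, exon 5: GGTgagacaggcattGGCAAATCC
SEPT3, chr22:41985984-41986006, plus strand, exon 4: GGCcagagtggactgGGCAAATCA
SEPT9, chr17:77487424-77487446, plus strand, exon 5: GGGcagagcggcttgGGTAAATCC

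Against SEPT2, the run of SEPT7 differed at 5 of 24 bases and that of SEPT9 at 11, of which 4 and 7 were at the third codon position. Over the whole coding sequence the GC content of the third codon position was 83.6% in SEPT9, 84.4% in SEPT5 and 81.0% in SEPT8, whereas it was 39.8% in SEPT7 and 43.0% in SEPT10. SEPT6 (67.7%), SEPT3 (65.1%), SEPT11 (53.8%) and SEPT2 (51.3%) lay between these.

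Levels were compared as FPKM, fragments per kilobase of gene length scaled to the size of the library. The gene length is that of all annotated exons together, 12844 bases in SEPT9 and 4131 in SEPT10. The order of different genes therefore depends on the annotation. In summed NC reads SEPT9 (11903), SEPT11 (10773) and SEPT7 (10660) lay above SEPT10 (9224). In NC the order of the means was SEPT2 (81.5 FPKM), SEPT10 (43.4), SEPT11 (21.4), SEPT7 (19.0), SEPT9 (18.0), SEPT8 (9.84), SEPT3 (5.26), SEPT6 (4.66) and SEPT5 (0.0848). The ranges of the 3 NC libraries overlapped between SEPT11 and SEPT7, between SEPT7 and SEPT9, and between SEPT3 and SEPT6, and the other neighbours in this order did not overlap. In siPSCA the order was SEPT2 (68.4), SEPT9 (26.9), SEPT10 (23.1), SEPT11 (19.1), SEPT7 (13.2), SEPT8 (12.8), SEPT3 (4.71), SEPT6 (3.49) and SEPT5 (0.226), and only the ranges of SEPT7 and SEPT8 overlapped. On the FPKM scale SEPT9 thus moved above SEPT7, SEPT11 and SEPT10, whereas in summed reads it was above these genes in NC already.

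**Figure D1:**
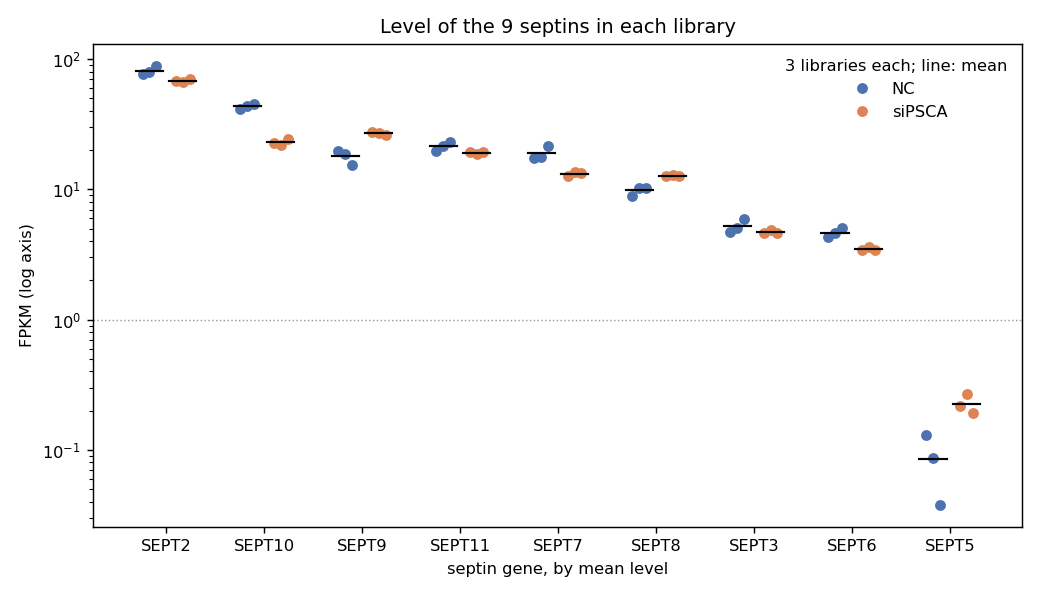
Level of each septin in FPKM (log axis) in the 3 NC and 3 siPSCA libraries, with points for libraries and lines for group means, and a dotted line at 1 FPKM. SEPT10 sits between 41.3 and 45.1 FPKM in NC and between 21.9 and 24.5 in siPSCA, SEPT9 is higher in all 3 siPSCA libraries, and SEPT5 lies below 1 FPKM in every library.

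Differences between the groups were tested with limma on log2(FPKM + 1) over the 13796 genes with a mean of at least 1 FPKM, and a gene was called when its Benjamini-Hochberg adjusted p was under 0.05. All members but SEPT5 reached this level. Of these 8 septins 6 were called, with SEPT8 and SEPT9 higher and SEPT2, SEPT6, SEPT7 and SEPT10 lower in siPSCA, while the same fit called 50.7% of all tested genes, 26.6% higher and 24.2% lower. Under an unadjusted p under 0.05 together with a log2 fold change past 0.5 in size, only SEPT9 and SEPT10 were called, against 24.9% of all genes. The groups did not overlap for 7 of the 8, against 64.5% of all tested genes. With 3 libraries against 3, an exact permutation test on a single gene cannot give a p below 0.1, two-sided, and each of these 7 genes was at that value.

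SEPT2 (listed as 2-Sep) is the abundant member of the group that also holds SEPT1, SEPT4 and SEPT5, and it is needed for the actomyosin ring in cytokinesis. It measured 76.4, 79.6 and 88.6 FPKM in NC and 68.4, 66.7 and 70.2 FPKM in siPSCA. Every siPSCA library was below every NC library, but the gap between the nearest libraries, NC 1 and siPSCA 3, was smaller than the spread among the NC libraries. The log2 fold change was −0.25 (SE 0.07, adjusted p = 0.0222), and the call was lost without siPSCA 1 (−0.25, adjusted p = 0.0700) or siPSCA 2 (−0.23, adjusted p = 0.0810). It was also lost without the minimum level (adjusted p = 0.0524) and with the GC and length trend removed (−0.09, adjusted p = 0.142). The SEPT2 gene (chr2:241315100-241354027, plus strand) shares 3.14% of its exonic bases with HDLBP on the opposite strand, whose own log2 fold change was −0.20, and whether strand was used in counting is not given in the sources used here.

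SEPT5 (listed as 5-Sep), a septin known from neurons and platelets where it restrains exocytosis, gave only 10, 7 and 3 reads in NC and 17, 22 and 16 reads in siPSCA. In FPKM these were 0.129, 0.0873 and 0.0378 against 0.218, 0.269 and 0.191, so that the groups did not overlap but stayed far below the other members. From 20 reads against 55, the ratio was 2.67 (95% interval 1.58 to 4.71, counting error only). A fit over the 34391 genes with a read called 16.3% of them, 8.08% higher and 8.21% lower. SEPT5 was not called in it (log2 fold change 0.18, SE 0.05, adjusted p = 0.0712). Limma-voom on the reads, which called 22.3% of these genes, called it (1.51, adjusted p = 0.0382). Removal of the GC and length trend gave −0.27. That trend was fitted over all genes with a read, and SEPT5 lies near the floor of log2(FPKM + 1), so this setting cannot decide its sign. The level of SEPT5 is uncertain for another reason, since 73.0% of its exonic bases (chr22:19714464-19724224, plus strand) belong on the same strand to the readthrough gene SEPT5-GP1BB, which itself had 1 to 14 reads a library. Protein-coding genes that share over 50% of their exonic bases in this way had a median of 0.00341 FPKM over 908 genes, against 2.24 FPKM over the 16526 without such an overlap.

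SEPT7 (listed as 7-Sep) is the sole member of its group and the subunit for which no paralog can stand in. It measured 17.5, 17.8 and 21.7 FPKM in NC and 12.6, 13.6 and 13.5 FPKM in siPSCA. NC 3 stood above the other control libraries, and all siPSCA libraries were below all NC libraries. SEPT7 fell by 0.49 on the log2 scale (SE 0.09, adjusted p = 0.00631), a ratio of means of 0.696, and by 0.39 without NC 3. With the GC and length trend removed the difference was −0.10 (adjusted p = 0.244) and the call was lost. SEPT7 (chr7:35800932-35907105, plus strand) has 14 annotated pseudogenes, which together took 3260 reads against 18292 on SEPT7 in the 6 libraries, and how reads were split among these near copies is not given in the sources used here. Of the 50-base windows of SEPT7, 2.96% recur in other annotated genes.

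SEPT10 showed the largest difference of the 9 on the main scale. This SEPT6 group member, listed as 10-Sep, measured 41.3, 43.7 and 45.1 FPKM in NC and 22.8, 21.9 and 24.5 FPKM in siPSCA. The lowest NC library was well above the highest siPSCA library, and the spread within each group was small beside the distance between them. The log2 fold change was −0.88 (SE 0.06, 95% interval −1.03 to −0.74, adjusted p = 0.000493), a ratio of means of 0.532, and 2.75% of all tested genes had a lower value. The call held with the GC and length trend removed (−0.66, adjusted p = 0.000290), and leaving out any single library gave −0.93 to −0.85. SEPT10 lies at chr2:109542982-109614206 on the minus strand, its exons overlap no other annotated gene, and 5.82% of its 50-base windows recur in the pseudogene SEPT10P1, which had 15 reads in all.

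SEPT8 (listed as 8-Sep), a paralog of the same group, went the opposite way to SEPT10. It measured 8.90, 10.3 and 10.3 FPKM in NC and 12.8, 12.9 and 12.7 FPKM in siPSCA. The siPSCA libraries lay within a narrow range above all NC libraries. SEPT8 rose by 0.35 on the log2 scale (SE 0.07, adjusted p = 0.00756), a ratio of means of 1.30, and by 0.31 (adjusted p = 0.00838) with the GC and length trend removed. The gene (chr5:132750817-132807241, minus strand) shares 14.9% of its exonic bases with CCNI2 on the other strand, which had only 2 to 18 reads a library.

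SEPT6 (listed as 6-Sep), which gives this group its name, was lower in siPSCA. It measured 4.32, 4.62 and 5.04 FPKM in NC and 3.41, 3.63 and 3.43 FPKM in siPSCA. The groups did not overlap. SEPT6 (chrX:119615724-119693370, minus strand) fell by 0.33 on the log2 scale (SE 0.07, adjusted p = 0.00960) and by 0.32 (adjusted p = 0.00669) with the GC and length trend removed, and the call held without each library in turn.

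SEPT11 (listed as 11-Sep), also of the SEPT6 group, had 19.8, 21.3 and 23.0 FPKM in NC and 19.3, 18.7 and 19.4 FPKM in siPSCA. NC 1 lay just above the highest siPSCA library. SEPT11 was not called, with a log2 fold change of −0.15 (SE 0.06, adjusted p = 0.0889). Its value depended on the treatment of base composition, since with the GC and length trend removed it was 0.13 with an adjusted p of 0.0490, and without NC 1 it was −0.20 with an adjusted p of 0.0393. The gene lies at chr4:76949703-77040384 on the plus strand and shares no exonic base with another annotated gene.

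SEPT9 (listed as 9-Sep), the subunit that distinguishes octamers from hexamers, was the member with the largest increase among those tested. It measured 19.8, 18.8 and 15.5 FPKM in NC and 27.7, 27.1 and 26.0 FPKM in siPSCA. NC 3 was the lowest library, and all siPSCA libraries were above all NC libraries. SEPT9 rose by 0.56 on the log2 scale (SE 0.09, 95% interval 0.34 to 0.78, adjusted p = 0.00457), a ratio of means of 1.49, and 12.7% of all tested genes had a higher value. The increase was 0.46 without NC 3 and 0.23 (adjusted p = 0.00440) with the GC and length trend removed. SEPT9 (chr17:77280569-77500596, plus strand) has 47 annotated transcripts, which the table does not separate, and 6.73% of its exonic bases overlap an antisense gene with 2 to 8 reads a library.

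SEPT3 (listed as 3-Sep), the neuronal member of the SEPT9-containing group, measured 4.74, 5.09 and 5.94 FPKM in NC and 4.59, 4.89 and 4.63 FPKM in siPSCA. The groups overlapped, because siPSCA 2 was above NC 1. The log2 fold change was −0.13 (SE 0.08, 95% interval −0.33 to 0.07, adjusted p = 0.235), and −0.05 (adjusted p = 0.476) without NC 3. SEPT3 (chr22:41969475-41998221, plus strand) was present although the neuronal markers SYP and RBFOX3 were at 0.145 to 0.323 FPKM and SNAP25 at 0.722 to 1.18 FPKM.

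**Figure D2:**
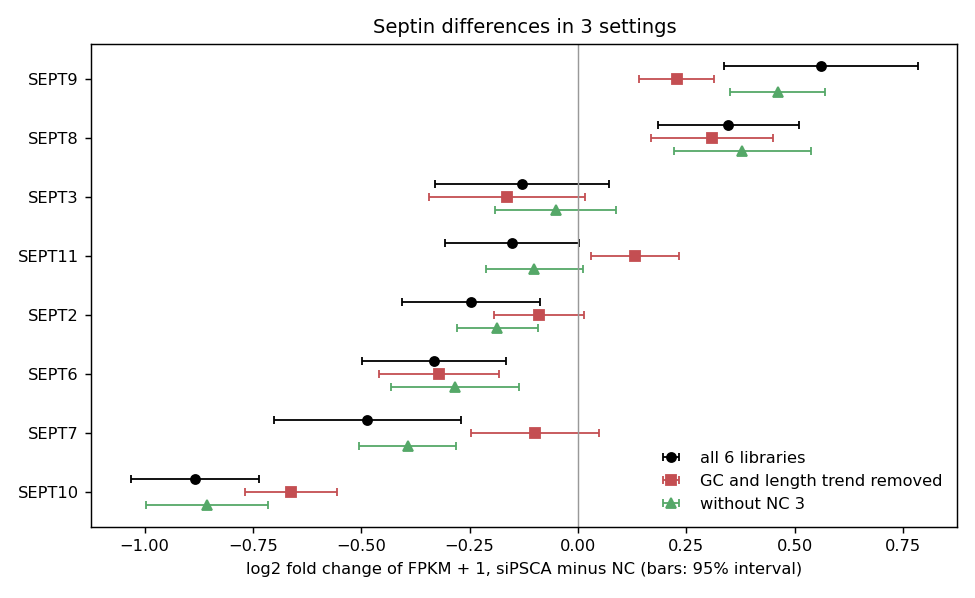
Log2 fold change of FPKM + 1 (siPSCA minus NC) of the 8 tested septins, with 95% intervals, from all 6 libraries, with the GC and length trend removed, and without NC 3. SEPT10 and SEPT6 stay below 0 and SEPT8 and SEPT9 above 0 in all 3 settings, whereas SEPT7 moves from −0.49 to −0.10 and SEPT11 from −0.15 to 0.13 when the trend is removed.

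The family rows outside the 9 were low. SEPT4, known from the sperm annulus, had 0.390 to 0.681 FPKM over the 6 libraries with NC and siPSCA overlapping, and SEPT1 had 0.0964 to 0.508 FPKM. SEPT12 had a read in siPSCA 1 only, and SEPT14 was listed at 0 in every library, both genes being known from testis. The 12 pseudogenes named for SEPT14 together took 566 reads in the 6 libraries. How reads were split between them and SEPT14 is not given in the sources used here. SEPT5 was below both SEPT4 and SEPT1 in every library, so that the 9 genes are not the 9 most abundant of the family.

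Because septin rods draw on all groups, the makeup of the septin transcript pool was computed as the share of each gene in the summed FPKM of the 13 rows. The size of each share therefore depends on the annotated gene lengths, and so does the summed level. The summed level was 194, 202 and 216 FPKM in NC and 173, 171 and 175 FPKM in siPSCA. As a share of reads on genes, septins took 0.157%, 0.161% and 0.171% in NC and 0.151%, 0.151% and 0.152% in siPSCA. In both measures all siPSCA libraries were below all NC libraries. Neither measure was computed with the GC and length trend removed. The share of SEPT2 was 39.9% ± 0.985 (SD, n = 3) in NC and 39.6% ± 0.491 in siPSCA, with overlapping groups, although its level was lower.

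The share of the SEPT6 group was smaller in siPSCA and that of the SEPT3 group larger. Shares were not computed with the GC and length trend removed. In that setting the log2 fold change of SEPT9 was 0.23 in place of 0.56, and that of SEPT10 −0.66 in place of −0.88. The SEPT6 group (SEPT6, SEPT8, SEPT10, SEPT11 and SEPT14) held 38.9% ± 0.604 of the pool in NC and 33.8% ± 0.419 in siPSCA, and the SEPT3 group (SEPT3, SEPT9 and SEPT12) held 11.5% ± 1.38 and 18.3% ± 0.743, without overlap in either case. Within the SEPT6 group, SEPT10 made up 54.8% ± 0.767 in NC and 39.5% ± 1.27 in siPSCA, SEPT8 12.4% ± 0.465 and 21.9% ± 0.700, and SEPT11 27.0% ± 0.501 and 32.7% ± 0.397. SEPT6 itself held 5.87% ± 0.144 and 5.98% ± 0.345 of the group, and its libraries overlapped. Each share depends on the other members of the group as well. The mean level of SEPT11 was lower in siPSCA (19.1 against 21.4 FPKM, not called) although its share was larger. SEPT6 was called lower (log2 fold change −0.33) although its share overlapped.

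Ratios between members showed the same shift in each library. The ratio of SEPT9 to SEPT7 was 1.13, 1.06 and 0.716 in NC and 2.20, 2.00 and 1.93 in siPSCA. The NC 3 library had the lowest ratio, and no siPSCA library was within the NC range. The log2 fold change of SEPT9 exceeded that of SEPT7 by 1.05 with all 6 libraries, by 0.85 without NC 3 and by only 0.33 with the GC and length trend removed, these genes having the highest and the lowest GC content of the 8. The ratio of SEPT10 to SEPT11 was 2.09, 2.05 and 1.96 in NC and 1.18, 1.17 and 1.26 in siPSCA, and the difference of their log2 fold changes was −0.73, or −0.79 with the trend removed. These are ratios of FPKM, whose size depends on the annotated gene lengths, and protein was not measured in these libraries.

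**Figure D3:**
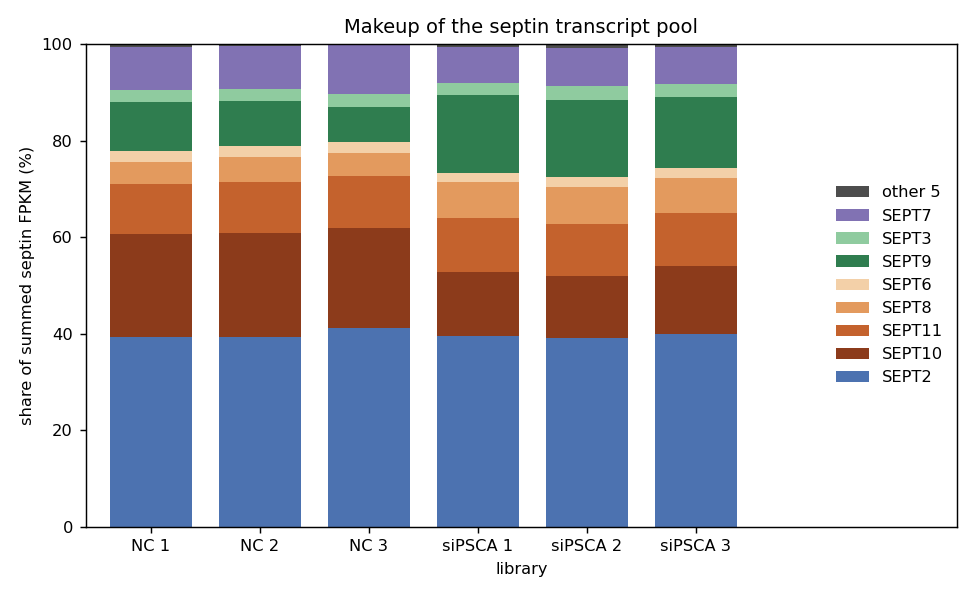
Share of each septin in the summed septin FPKM (%) of each library, stacked to 100%, with SEPT6 group members in orange and brown tones and SEPT3 group members in greens. SEPT2 holds a mean of 39.9% in NC and 39.6% in siPSCA, while SEPT10 goes from 21.3% to 13.3% and SEPT9 from 8.89% to 15.6%, each without overlap between the groups.

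The differences of the septins moved with their base composition. Over the 13792 tested genes with a GC value, the log2 fold change rose with the GC content of the longest transcript (Spearman rho 0.664 across genes, which share the 6 libraries and are not independent replicates), and over the 8 tested septins the rho was 0.881. SEPT7 had the lowest GC content (35.3%), followed by SEPT10 (40.8%), SEPT11 (41.7%), SEPT2 (44.3%), SEPT6 (48.0%), SEPT3 (50.1%), SEPT8 (50.5%) and SEPT9 (60.1%). After each library had been freed of its trend on GC content and gene length, 5 of the 8 septins were called, namely SEPT8, SEPT9 and SEPT11 higher and SEPT6 and SEPT10 lower, while 39.6% of all tested genes were called in that setting, 21.2% higher and 18.4% lower. SEPT8 and SEPT3, with GC contents of 50.5% and 50.1%, had log2 fold changes of 0.35 and −0.13 before the removal and 0.31 and −0.16 after it. SEPT3 was not called in either setting (adjusted p = 0.235 and 0.126), so its sign is not settled. The removal also takes out any true difference that follows GC content, so the values before and after it are both given.

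**Figure D4:**
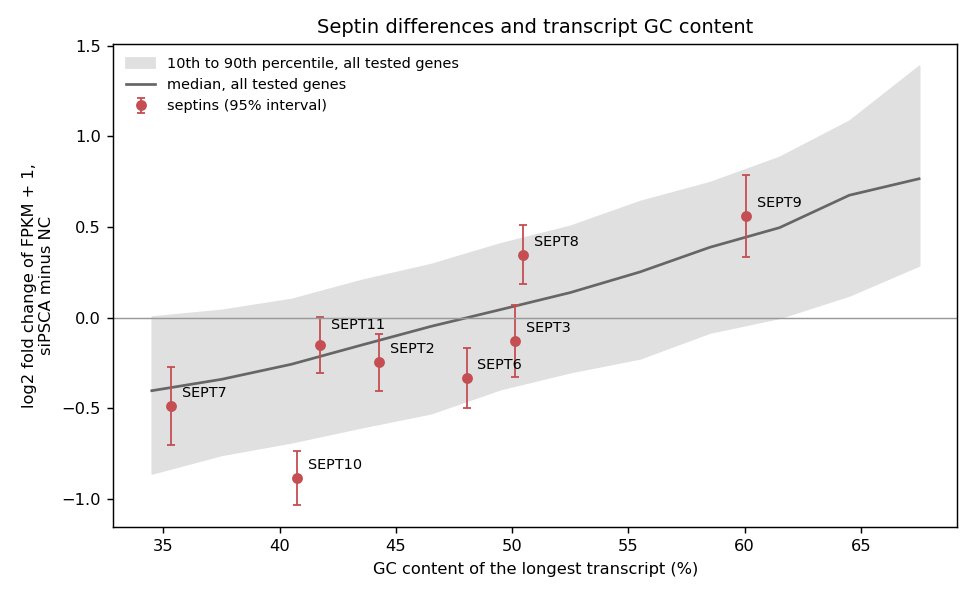
Log2 fold change of FPKM + 1 (siPSCA minus NC) against the GC content of the longest transcript (%), with the median and the 10th to 90th percentile of all tested genes in grey and the 8 tested septins with 95% intervals in red. SEPT10 at 40.8% GC lies below the grey band, and SEPT7 at 35.3% and SEPT9 at 60.1% lie close to the grey median line.

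Among tested protein-coding genes, the pattern over the 6 libraries most like that of SEPT2, the septin of the highest mean level, was that of THUMPD3. This tRNA methyltransferase gene had a Pearson r of 0.999 on log2(FPKM + 1). VIRMA, a subunit of the RNA m6A methyltransferase complex, and SPRED1, an inhibitor of RAS signalling, also had an r of 0.999. All 3 were lower in siPSCA, by 0.47, 0.33 and 0.38 on the log2 scale. With 6 libraries in 2 groups this likeness is a description and carries no test.

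Septins are recruited and organized by the CDC42 effectors of the Borg family (CDC42EP1 to CDC42EP5), by anillin, by non-muscle myosin II and by other partners, and 7 of 11 such partner genes were tested. CDC42EP1 and CDC42EP4 were called higher, ANLN and CDC42EP3 were called lower, and the median log2 fold change was 0.11, against 0.01 over all tested genes. With the GC and length trend removed the partner median turned to −0.09, against 0.02 over all genes, and CDC42EP1 (lower) and MAP4 (higher, 0.16, adjusted p = 0.0216) were called. CDC42EP1 measured 19.7, 18.7 and 12.9 FPKM in NC and 25.9, 25.8 and 24.2 FPKM in siPSCA (log2 fold change 0.56, SE 0.15, adjusted p = 0.0231). Its sign was opposite with the GC and length trend removed (−0.19, adjusted p = 0.0103), and the call was lost without any single siPSCA library (adjusted p = 0.0531 to 0.0742). CDC42EP4 had 10.9 to 13.1 FPKM in NC and 14.9 to 15.5 in siPSCA (0.30, SE 0.07, adjusted p = 0.0176), and −0.10 with the trend removed.

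CDC42EP3 had 9.10 to 9.96 FPKM in NC and 7.45 to 8.37 in siPSCA (−0.25, SE 0.07, adjusted p = 0.0204). ANLN, the scaffold that brings septins to the cleavage furrow, had 27.2, 28.6 and 32.5 FPKM in NC and 21.4, 22.5 and 23.1 FPKM in siPSCA (−0.38, SE 0.08, adjusted p = 0.00850). Neither CDC42EP3 nor ANLN was called with the trend removed (both −0.09). Without siPSCA 1 or without siPSCA 2 only ANLN of the 7 partners was called. MYH9 (0.12), MYH10 (−0.11) and MAP4 (0.11) were not called with all 6 libraries. Without NC 3, MYH9 (0.21, adjusted p = 0.00431) and MAP4 (0.14, adjusted p = 0.0155) were called and MYH10 was at −0.04 (adjusted p = 0.439).

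The 4 partners under the minimum were CDC42 (0.266 to 0.612 FPKM), CDC42EP2 (0 to 0.106), CDC42EP5 (0.193 to 1.93) and ARHGEF18 (0.363 to 0.796). CDC42 shares 57.1% of its exonic bases with another gene on the same strand, CDC42EP2 84.8% and ARHGEF18 76.4%, so their levels are uncertain as that of SEPT5 is.

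Among 24 genes of cytokinesis 23 were tested, of which 8 were called higher and 8 lower, with a median log2 fold change of −0.06. ANLN, MYH9 and MYH10 are in both this list and the partner list, so the counts of these lists are not separate. The largest called differences were those of AURKB, the kinase of the chromosomal passenger complex, which rose by 0.87 on the log2 scale (SE 0.10, adjusted p = 0.00164), and MYL12A, a myosin regulatory light chain, which fell by 0.66 (SE 0.10, adjusted p = 0.00332). With the GC and length trend removed, 4 genes of this list were called higher and 5 lower, and the median was −0.02. The exocyst, the vesicle tethering complex with which septins associate at membranes, had 9 tested genes, of which 2 were called higher and 5 lower, with a median of −0.24. EXOC4 fell by 0.56 (SE 0.09, adjusted p = 0.00457) and EXOC1 by 0.49 (SE 0.09, adjusted p = 0.00679), and with the trend removed 2 exocyst genes were called, both lower, and the median was −0.03. The shares called among septins, partners, cytokinesis and exocyst genes are read against the 50.7% of all genes that this comparison called. Counts with the trend removed are read against the 39.6% of all tested genes called in that setting.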

How the data were processed

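RNA-seq was measured in 3 NC and 3 siPSCA libraries. The authors deposited 1 table of FPKM values per gene with gene names, positions and lengths, and the aligner, counter and strand setting are not given in the sources used here. FPKM times gene length gave whole reads for 100% of values (tolerance 0.05 read), so depth is known. All genes matched GENCODE release 29 by identifier. The members and gene lists were chosen with earlier results of these data known. Values were analysed as log2(FPKM + 1) with limma 3.58.1 (lmFit and eBayes with a mean-variance trend, R 4.3.3) over genes that averaged 1 FPKM or more, with Benjamini-Hochberg adjustment over all 13796 of them. The fit was also run on simulated reads with no GC trend and few changed genes, which does not bear on calls made under the GC trend of these libraries. Fold changes on this scale understate those of low genes. Intervals on reads are exact binomial and cover counting error only. Named genes were the 9 members, the septin partners, the 2 largest called cytokinesis and exocyst genes, and the 3 tested protein-coding genes most like SEPT2. Alternatives were a pseudocount of 0.1, no minimum, median-ratio size factors, limma-voom on the recovered reads, removal of a spline trend on GC content and length, a replicate block, each library left out, another threshold, and TPM for shares. Shared 50-base windows and Walker A codons were found in GENCODE transcripts with Python 3.11.15 and pandas 2.3.3.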

Additional observations from a re-analysis of the deposited data

How the results depend on the processing

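Of the 104 values of the 8 tested septins under the alternatives, 94 kept their direction and their side of the threshold. The replicate block and the fit without a minimum leave each log2 fold change unchanged by construction, so their directions are no check. The block with the trend removed likewise repeats the log2 fold changes of the trend removed alone. SEPT11 turned from −0.15 to 0.13 with the GC and length trend removed, with and without the replicate block. SEPT5, near the floor of the scale, turned to −0.27, which does not decide its sign. CDC42EP1 (−0.19), CDC42EP4 (−0.10) and MYH9 (−0.19) also changed sign in both of these settings, and the cause was not tested. The number of septins called was 2 when an unadjusted p under 0.05 and a fold change past 0.5 in size on the log2 scale were asked, which called 3434 of all genes, against 6 and 7001, and 5 to 7 with 1 library left out. All genes called numbered 4627 to 7425 with 1 library left out (4627 without siPSCA 1) and 4643 with the replicate block and the trend removed. Called partners numbered 2 with the trend removed, 1 with the block as well, 1 under the fold threshold and 1 to 6 with 1 library left out. Called cytokinesis genes numbered 9, 6 and 3 in the same settings and 12 to 17 with 1 library left out, and called exocyst genes 2, 1 and 1, and 5 to 6. Correlations of same-numbered deviations were 0.0955, 0.0132 and 0.134, against −0.131 to 0.0417 for different numbers. siPSCA 1 and siPSCA 3 were closest to the NC library of their number, and siPSCA 2 to NC 1. These values do not settle whether the replicate numbers pair the libraries. The replicate block alone called 6 septins and 6725 of all genes, and with the trend removed 4 septins. Shares of the pool cannot differ on TPM, which rescales each library by a constant. Depth limits SEPT5, SEPT1, SEPT12, SEPT14 and PSCA.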
